A study of Mus musculus with 2 samples.

Results

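The genes described here are those whose symbol begins with Ube2 (ubiquitin-conjugating enzymes) or with Usp and a number (ubiquitin-specific proteases, the largest family of deubiquitinases) and that have a probe set assigned to no other gene. They were chosen by a rule on the name, without Usp18, and with earlier results of these data known. They number 83 of the 18194 genes so measured: 33 Ube2 and 50 Usp genes, read by 208 probe sets. The cells were neutrophils from the bone marrow of C57BL/6 mice, freshly isolated and untreated, taken by flow cytometry as live cells with high Gr-1 and no CD48 on their surface, in 2 independent experiments. RNA of each experiment was hybridised to 1 array, so there is 1 group with n = 2, called replicate 1 and replicate 2. The sources used here do not give the number, age or sex of the mice, nor whether animals were pooled. No genotype, treatment or time was compared, so the values show which of these genes gave a signal and how far the experiments differed. No test between groups was possible.

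Ubiquitin is a small protein that cells join to other proteins to mark them for destruction or to change what they do. An E1 enzyme activates ubiquitin, an E2 (conjugating) enzyme carries it, and an E3 ligase brings the E2 to the target. Deubiquitinases take ubiquitin off again or trim its chains. In neutrophils and their precursors this machinery acts in the cell cycle, in signalling from pathogen and cytokine receptors, and in the turnover of receptors and short-lived survival proteins.

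Background was read from 87 probe sets of sensory receptor genes (smell, pheromone and taste receptors), and its threshold on each array was their 95th percentile, 108 for replicate 1 and 131 for replicate 2. A gene counts as above background if any of its probe sets passed both thresholds. The signal of a gene is that of its brightest probe set, a linear MAS5 intensity. Since probe sets bind with different strength, signals are compared between arrays and not between genes. A difference is the log2 signal of replicate 2 minus that of replicate 1. Over the 7354 genes above background it had a median of 0.07 and an SD of 0.50. Its central 95% ran from -0.94 to 1.08. A change of scaling moves all of these values together: the median of all genes was -0.06 with median scaling and -0.65 with scaling to the hybridisation controls.

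All 14 measured neutrophil markers were above background, 12 of them higher on replicate 2, with a median difference of 0.55 and a summed signal of 308174 on replicate 1 and 444406 on replicate 2. Markers of other marrow cells were above it in 6 of 12 for monocytes and macrophages, 3 of 9 for erythroid cells, 1 of 11 for B and plasma cells, 1 of 10 for T and NK cells and 1 of 9 for stem and progenitor cells. The summed signal of the monocyte and macrophage markers was 7057 on replicate 1 and 3373 on replicate 2, and without Csf1r (5020 and 1928), chosen after its values were seen, 2037 and 1445. That of the erythroid markers was 1048 and 1049. Of 19 proliferation markers 8 were above background on both arrays, 7 on replicate 2 alone and 4 on neither, and their summed signal was 2555 on replicate 1 and 10761 on replicate 2. Markers of 1 cell type differed among themselves. The macrophage gene C1qc was near 0 (4.81 and 8.75) while C1qb (256 and 163) was above background. The T cell gene Cd3e was below background (15.0 and 7.92) and Cd3d (433 and 374) above it. The stem and progenitor gene Cd34 was near 0 (3.01 and 8.29) while Kit (244 and 547) was above background.

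Promoters are shown for the members that lay farthest apart between the arrays, as far as the sequence table holds them: Ube2c, higher on replicate 2, Usp32, higher on replicate 1, and Ube2s, higher on replicate 2 by an _s_at probe set alone (its other probe set, below background, differed by -0.49). Each sequence is RefSeq's for build GRCm38.p6, with 250 bases before and 50 bases after the gene's start, 5′ to 3′ on the gene's strand. Capitals mark CCAAT (the box bound by NF-Y), TTTGAA (the cell cycle homology region element of genes expressed late in the cell cycle) and GGGCGG (the GC box bound by Sp1 proteins), each searched on both strands, so that a match on the opposite strand appears as its reverse complement. Neighbouring capitals are matches that touch or overlap. Ube2c lies at chr2:164769679-164769978 on the plus strand, Ube2s at chr7:4812291-4812590 on the minus strand and Usp32 at chr11:85139906-85140205 on the minus strand.
Ube2c: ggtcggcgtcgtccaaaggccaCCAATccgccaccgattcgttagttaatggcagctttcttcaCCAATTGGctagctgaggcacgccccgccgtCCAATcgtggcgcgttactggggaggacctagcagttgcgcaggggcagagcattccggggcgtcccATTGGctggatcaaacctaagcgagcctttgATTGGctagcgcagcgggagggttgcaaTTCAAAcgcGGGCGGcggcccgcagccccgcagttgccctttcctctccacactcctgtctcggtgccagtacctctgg
Ube2s: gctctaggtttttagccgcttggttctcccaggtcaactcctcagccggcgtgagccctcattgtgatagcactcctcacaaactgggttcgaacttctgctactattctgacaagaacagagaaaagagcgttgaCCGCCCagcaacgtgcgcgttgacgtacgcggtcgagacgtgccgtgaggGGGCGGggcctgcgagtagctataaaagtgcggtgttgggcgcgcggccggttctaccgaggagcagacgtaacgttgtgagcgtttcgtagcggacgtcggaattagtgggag
Usp32: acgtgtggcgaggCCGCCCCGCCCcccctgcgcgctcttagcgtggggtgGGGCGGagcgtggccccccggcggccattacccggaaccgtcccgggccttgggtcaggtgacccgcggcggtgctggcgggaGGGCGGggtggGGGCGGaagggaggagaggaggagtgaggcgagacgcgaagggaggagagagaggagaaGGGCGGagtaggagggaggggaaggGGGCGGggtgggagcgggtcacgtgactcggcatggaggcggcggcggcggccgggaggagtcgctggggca

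The Ube2c promoter held 6 CCAAT boxes, 1 TTTGAA that begins 29 bases before the start, and 1 GC box. Of all 32851 promoters of this length in the table, 2.09% held TTTGAA together with at least 2 CCAAT boxes, and 0.0791% held at least 6 CCAAT boxes. For measured genes above background these shares were 1.76% and 0.169%. Of the windows of members above background, 2 of 50 (4%) held TTTGAA with at least 2 CCAAT boxes. These were Ube2c and a window of Ube2f, whose difference was 0.38. Windows of Usp17la and Usp26, which were not above background, held the combination too. The Ube2s window held 2 GC boxes and neither of the other motifs, and the Usp32 window held 7 GC boxes, a number that 0.627% of all promoters, 1.48% of those of measured genes above background and 2 of 50 windows of members above background (4%) reached. Promoters were found for 65 of the 83 members (75 windows, since a gene can have several). A GC box lay in 42 of 50 windows of members above background (84%) and in 12 of 25 windows of members not above it (48%), where it lay in 63.1% of the windows of all measured genes above background and 44.4% of those not above it. CCAAT lay in 6 of 50 windows of members above background (12%), beside 36.4% of windows of all measured genes above background. For members not above background it was 12 of 25 (48%), beside 38.2% of windows of measured genes not above it. Windows of the same gene are not independent. A match is a string of letters and was not tested as a binding site.

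Of the 83 genes, 56 (67.5%) were above background on both arrays, where 40.4% of all measured genes were. This share moves with the number of probe sets per gene, which averaged 2.51 for these genes and 1.92 for all genes. Among genes with 1 probe set, 7 of 21 Ube2 and Usp genes were above background (33.3%), beside 26.7% of all such genes. With 2 probe sets the count was 22 of 33 (66.7%, beside 46.7%), with 3 it was 10 of 11 (90.9%, beside 58.1%), and with 4 or more it was 17 of 18 (94.4%, beside 68.6%). Counted by probe set, 121 of 208 were above background on both arrays (58.2%), beside 35.5% of all probe sets with 1 gene. The choice of genes was made with earlier results of these data known, so no test was applied to these shares. Asking that every probe set of a gene be above background left 28 of 83 genes, beside 22.8% of all genes.

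**Figure D1:**
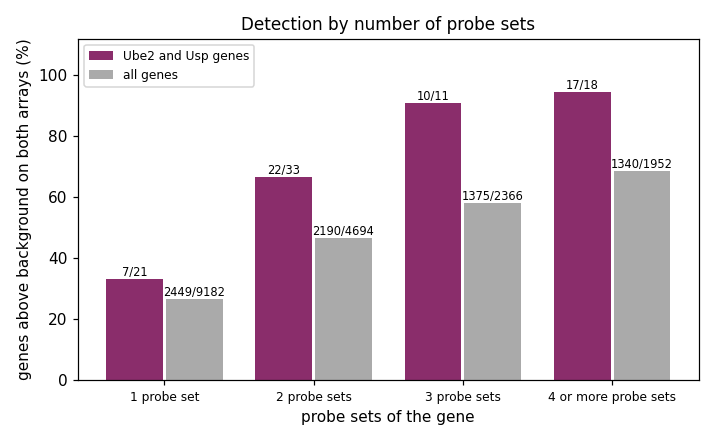
Share of genes above background on both arrays (percent, bars start at 0) by the number of probe sets of the gene, for Ube2 and Usp genes and for all measured genes, with the counts over the bars. The share grows with the number of probe sets in both sets of genes, from 33.3% to 94.4% for Ube2 and Usp genes and from 26.7% to 68.6% for all genes.

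The E2 genes were above background in 26 of 33 (78.8%) and the Usp genes in 30 of 50 (60%), beside 40.4% of all measured genes. The same share of all genes stands beside the counts by role below. These counts move with the number of probe sets per gene too, and genes of like number were not compared by family or role. Of the other 27 genes, 23 were above background on neither array and 4 (4.82%) on replicate 1 alone, beside 5.61% of all genes. None was above background on replicate 2 alone, beside 3.53% of all genes. Of the genes that the rule takes in by name, 4 are not known to encode a protein of the E2 or USP family: the pseudogene Ube2d-ps, the antisense RNA Usp46os2, Ube2cbp (an E3-type protein) and Usp6nl (a GTPase-activating protein for Rab proteins). Without them 55 of 79 genes were above background. The 79 still hold family members that lack catalytic residues, such as Usp39, Ube2v1 and Ube2v2.

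**Figure D2:**
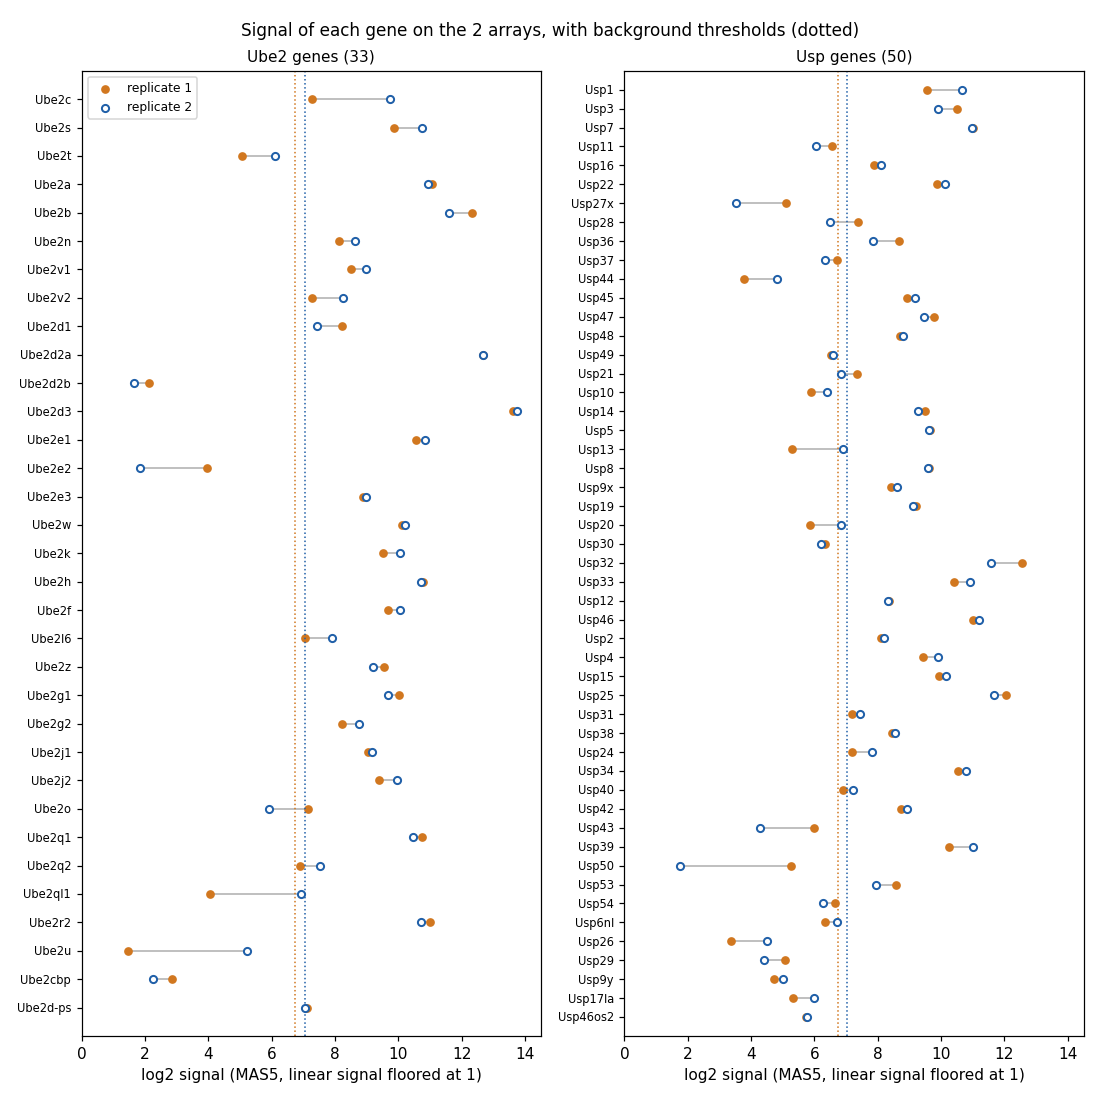
Log2 signal of the brightest probe set of each of the 33 Ube2 and 50 Usp genes on replicate 1 (filled) and replicate 2 (open), joined by a line, in the order of the roles described in the text. Dotted lines are the background thresholds of the arrays, signals of 108 and 131, and the long lines of Ube2u and Usp50 lie below them, while Ube2c has a long line above them.

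The E2 enzymes of cell division and DNA repair held the greatest difference between the arrays. Ube2c, which starts ubiquitin chains for the anaphase-promoting complex (the E3 that ends mitosis), had signals of 153 on replicate 1 and 846 on replicate 2. It was 5.52-fold higher on replicate 2, a log2 signal of 8.49 ± 1.74 (SD, n = 2). Ube2s, which lengthens the chains that Ube2c starts, had 930 and 1708, a difference of 0.88. Its value rests on a probe set whose name ends in _s_at, which can bind transcripts of several genes. The other Ube2s probe set was below background at 44.8 and 31.8, a difference of -0.49. Ube2t, the E2 of the Fanconi anaemia repair pathway, was not above background on either array, with 33.4 and 68.5.

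The RAD6-type enzymes Ube2a and Ube2b, which act at stalled replication forks and on histones, did not share this direction. Ube2a had signals of 2122 and 1955. Ube2b had 5162 on replicate 1 and 3124 on replicate 2, and was 1.65-fold higher on replicate 1. All 4 probe sets of Ube2b were above background and lower on replicate 2, with differences from -0.72 to -0.35.

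Lys63-linked chains, which carry signals from Toll-like and interleukin receptors, are built by Ube2n together with Ube2v1 or Ube2v2, partners that lack a catalytic cysteine. All 3 genes were above background. Ube2n had 281 on replicate 1 and 400 on replicate 2, and Ube2v1 had 364 and 504. Ube2v2 had 153 and 304, a 1.99-fold difference and the next in size after Ube2c and Usp1 in favour of replicate 2. The brightest probe set of each of the 3 was higher on replicate 2. The probe sets did not all bear this out: the other Ube2v1 probe set had a difference of -0.12, with 360 and 330, while the 3 dimmer Ube2v2 probe sets, all below background, had differences of 0.50, 1.03 and 1.07.

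Among the broad-acting E2 enzymes, which work with many E3 ligases, 8 of 10 genes were above background. Ube2d3 had signals of 12711 and 13869 and Ube2d2a 6594 and 6548, the smallest difference of the 26 Ube2 genes at -0.01. All 7 probe sets of Ube2d3 and all 5 of Ube2d2a were above background. Ube2d1, their close relative, was lower on replicate 2, with 300.1 and 174. Ube2e1 had 1522 and 1830, Ube2e3 474 and 508, Ube2h 1764 and 1695, and Ube2w, which joins ubiquitin to the amino terminus of proteins, 1099 and 1197. Other Ube2h probe sets above background differed by -0.61 and -0.39, and the other Ube2e1 probe set by -0.47. Ube2k, which builds Lys48-linked chains, was higher on replicate 2 on its brightest probe set, with 731 and 1071, but its other probe set above background had a difference of -0.04. Ube2d2b and Ube2e2 were below background, at 4.31 and 3.12 and at 15.6 and 3.55. The transcripts of the Ube2d genes are much alike, and the pseudogene Ube2d-ps, just above the threshold with 138 and 132; binding of one gene's RNA to another's probe set was not tested.

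E2 enzymes for ubiquitin-like proteins were above background in all 3 measured cases. Ube2f, which carries NEDD8 to cullin ligases, had 820 and 1065, and its 5 probe sets above background were all higher on replicate 2. Ube2l6, the E2 for ISG15, an interferon-induced modifier, had 134 and 239, and was no longer above background with the 99th percentile as threshold. Ube2z, which accepts ubiquitin and FAT10 from the E1 enzyme Uba6, had 756 and 592. All 4 E2 enzymes for protein quality control at the endoplasmic reticulum were above background. Ube2g1 had 1040.1 and 810.2, Ube2g2 had 299 and 433, Ube2j1 had 525 and 571, and Ube2j2 had 663 and 1004. The greatest difference of the 4 was that of Ube2j2 at 1.51-fold, and the other probe set of Ube2j2 differed by -0.18.

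Ube2r2, a partner of cullin ligases and a relative of Cdc34, had signals of 2045 and 1700.4. Ube2q1 had 1719 and 1411, and Ube2q2 had 119 and 183. Ube2o, a large enzyme that joins E2 and E3 functions, was above background on replicate 1 alone, with 140.1 and 60.3. Ube2o was at least 1.07-fold higher on replicate 1, taking the threshold as the value on replicate 2. Ube2ql1 (16.7 and 122), Ube2u (2.74 and 37.0) and Ube2cbp (7.28 and 4.72) were below background on both arrays.

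Among the deubiquitinases of chromatin, DNA repair and the cell cycle 9 of 17 were above background. Usp1, which takes ubiquitin off PCNA and off the Fanconi protein Fancd2, had signals of 749 on replicate 1 and 1611 on replicate 2. It was 2.15-fold higher on replicate 2, at a log2 signal of 10.10 ± 0.78 (SD, n = 2). Its 3 probe sets were all above background and agreed closely, with differences of 1.00, 1.10 and 1.14. Wdr48, the subunit that activates Usp1, had 333 and 377.

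Usp3 and Usp16 take ubiquitin off histones. Usp3 had 1466 and 956 and was 1.53-fold higher on replicate 1, with 4 probe sets above background and differences from -0.62 to -0.05. Usp16 had 234 and 277. Usp22, the deubiquitinase of the SAGA coactivator complex, had 936 and 1114. Its partner genes Atxn7l3 (1245 and 1315) and Atxn7 (666 and 671) were above background too. Its partner gene Eny2 was above background on replicate 2 alone, with 95.3 and 283. Usp7, which acts on Mdm2 and p53, had 2067 and 2006, Usp47 had 886 and 709, Usp48 421 and 448, and Usp45 491 and 573.

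Usp36, a nucleolar deubiquitinase, was the member whose probe sets disagreed most. Its brightest probe set had 408 on replicate 1 and 229 on replicate 2, a difference of -0.83, while another, with 127 and 268, differed by 1.08. No direction is given for Usp36. The values for Usp21 (162 and 115) and Usp28 (165 and 90.8) exceeded the threshold on replicate 1 alone, so they were at least 1.23-fold and 1.253-fold higher there. Usp10 (59.2 and 83.8), Usp11 (93.9 and 66.0), Usp37 (104 and 80.6), Usp49 (91.3 and 97.03), Usp44 (13.7 and 28.3) and Usp27x (34.7 and 11.4) were not above background on either array.

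Usp14, which trims chains at the proteasome, had signals of 716 and 625. Usp5, which takes apart free ubiquitin chains, had 811 and 782. Its relative Usp13 was below background on both arrays, with 38.8 and 120. The difference was -0.20 for Usp14 and -0.05 for Usp5, and a dimmer Usp14 probe set above background, with 284 and 339, differed by 0.26.

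Of the deubiquitinases of endosomes, organelles and membranes 8 of 10 were above background. Usp32, a membrane-anchored enzyme that acts on Rab7 of late endosomes, had 6039 on replicate 1 and 3048 on replicate 2. It was 1.98-fold higher on replicate 1, at a log2 signal of 12.07 ± 0.70 (SD, n = 2), the greatest such difference among all 56 genes. Its 3 probe sets were all above background, and a second had 861 and 278, a difference of -1.63, and the third 1877 and 992, a difference of -0.92. Usp8, which takes ubiquitin off receptors on endosomes, had 779 and 768, a 1.01-fold difference. Usp33 had 1347 and 1948, Usp46 2043 and 2345, Usp12 325 and 319, and Usp2 277 and 295. Usp19, anchored in the endoplasmic reticulum, had 592 and 551, and Usp9x had 345 and 391, with 4 of its 7 probe sets above background and differences from -0.42 to 0.18. The mitochondrial enzyme Usp30 (80.6 and 74.5) and Usp20 (58.7 and 114) were not above background on either array.

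The group listed for immune and growth factor signalling had 9 of 10 genes above background. Usp4 had 695 and 955, and its relative Usp15, an enzyme of the TGF-beta pathway, had 975 and 1141. Usp25, which acts on TRAF proteins below cytokine receptors, had 4236 and 3291, but its second probe set, with 269 and 277, differed by 0.04. Usp34 had 1488 and 1772, Usp38 346 and 372, Usp42 426 and 483, Usp24 144 and 226, Usp31 147 and 173, and Usp40 120.1 and 149. Usp43 was below background at 63.8 and 19.4. Of the 9, 8 were higher on replicate 2, beside 56.3% of all genes above background. The group median was 0.23, beside 0.07 for all genes. Differences of Usp38, Usp42, Usp15, Usp31, Usp34 and Usp40 ran from 0.10 to 0.31, under 0.37, the median range between probe sets of a member. Probe sets above background had mixed signs for Usp15 (-0.02 to 0.34) and Usp34 (-0.04 to 0.25). Genes on the same 2 arrays are not replicates.

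Usp39, a splicing protein without the catalytic residues of its family, had 1229 and 2062 and was 1.68-fold higher on replicate 2, with a second probe set at 0.62. Usp53 had 384 and 248 and was 1.55-fold higher on replicate 1, with a second probe set above background at -0.91. Usp54 (100.5 and 76.5) and Usp50 (38.6 and 3.38) were below background, and Usp6nl exceeded the threshold on replicate 1 alone, through 1 probe set at 133 and 8.91. None of 4 further Usp genes was above background: Usp26 had 10.3 and 22.7, Usp29 33.5 and 21.3, Usp17la 40.3 and 63.9, and Usp9y 26.2 and 32.4.

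Over the 56 genes above background the difference between the arrays had a median of 0.12, beside 0.07 for all genes, and an SD of 0.55, beside 0.50. The log2 signals of the arrays had a Pearson r of 0.935 and a Spearman rho of 0.936 across these 56 genes, and 0.954 and 0.935 across all genes above background, values across genes that share both arrays and are not independent replicates. In all 41 of the 56 (73.2%) differed by less than 1.5-fold, beside 79.5% of all genes. Of the 56 genes 2 (Ube2c and Usp1) were over 2-fold higher on replicate 2, where 3.43% of all genes were, and 0 over 2-fold higher on replicate 1, where 1.97% were. Relative to the median of all genes, 34 were higher on replicate 2 and 22 lower, where all genes split by definition at 50%. Ube2c, Usp1 and Ube2s lay outside the central 95% of all genes of like signal (dim, middle or bright), 3 of 56, beside 5.06% of all genes, and without Ube2s, which rests on an _s_at probe set, it was 2 of 55. These shares are near those of all genes.

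**Figure D3:**
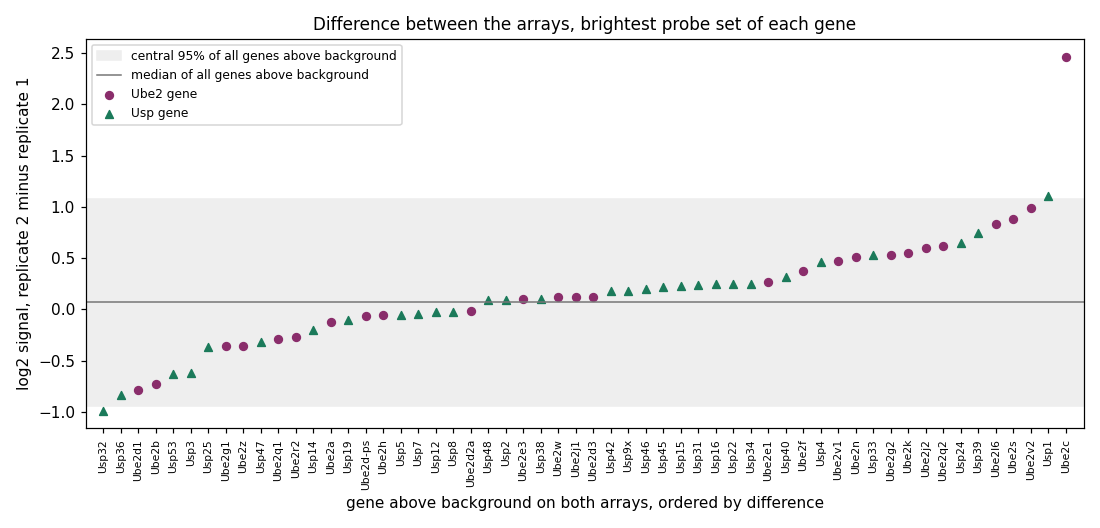
Log2 signal of replicate 2 minus replicate 1 for the 56 genes above background on both arrays, in order of the difference, with circles for Ube2 and triangles for Usp genes. The grey band is the central 95% of all genes above background, from -0.94 to 1.08, and the line their median, 0.07. Ube2c at 2.46 and Usp1 at 1.10 lie above the band and Usp32 at -0.99 below it.

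Beside Ube2c and Usp1, the proliferation markers moved the same way: the 8 markers above background had a median difference of 2.10 and every one of them favoured replicate 2, among them Mki67 (212 and 2149) and Top2a (189.6 and 1402). Cdc20, the activator of the anaphase-promoting complex that works with Ube2c, had 127 and 1556. Fzr1, its counterpart in G1, had 169 and 216, and the complex's subunits Anapc2 (541 and 567) and Anapc11 (197 and 192) differed little. Whether the share of dividing cells differed between the experiments, or the RNA per cell, cannot be told apart in bulk RNA, and the part of either in the Ube2c and Usp1 values was not tested. Beside Usp32, which was higher on replicate 1, 5 of the 6 monocyte and macrophage markers above background were higher there too. Among these 5, Vcam1 (260 and 255) and F13a1 (264 and 231) differed little, and Ccr2 (157 and 219.7) was higher on replicate 2. The markers not above background on both arrays were mixed. Ly86, C1qc, Mrc1 and Ms4a7 leaned to replicate 2, and C1qa and Cx3cr1 to replicate 1. Of the 14 neutrophil markers only Cxcr2 (7212 and 3224) and Csf3r (7951 and 4670) were higher on replicate 1. The part of these cells in the Usp32 value was not tested.

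**Figure D4:**
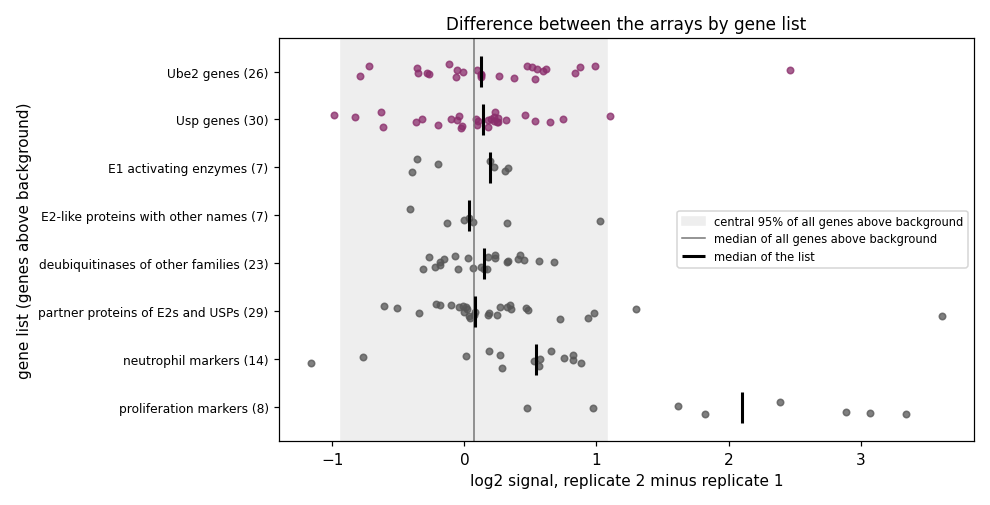
Log2 signal of replicate 2 minus replicate 1 for each gene above background (points) in Ube2 and Usp genes and in lists of the same pathway and of cell markers, with the median of each list (black bar). The medians of Ube2 genes (0.12) and Usp genes (0.14) lie close to that of all genes (0.07), and that of the proliferation markers at 2.10.

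Probe sets of the same gene give a second reading of the same RNA on the same array. Of the 37 genes with at least 2 probe sets above background on both arrays, 21 (56.8%) had differences of one sign in all of them, beside 59.8% of the 3000 such genes on the array. The range between the probe sets of a gene had a median of 0.37, beside 0.35 for all such genes. Usp45, Usp4 and Ube2z had the closest probe sets, with ranges of 0.02, 0.04 and 0.08. Usp36 had the widest range, 1.91, followed by Ube2d3 with 0.93 over 7 probe sets, and a dim probe set of Usp7, below background on replicate 1, had 16.98 and 244 while the 5 probe sets of Usp7 above background differed by -0.28 to 0.45. Differences under about 0.4 were thus no larger than the median range between probe sets of these genes. Those of Usp1, Usp32, Usp53, Usp39 and Ube2b, among others, were larger than the range between their own probe sets above background. The same held for some genes with smaller differences, such as Usp47 (-0.32, range 0.10) and Ube2z (-0.35, range 0.08).

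**Figure D5:**
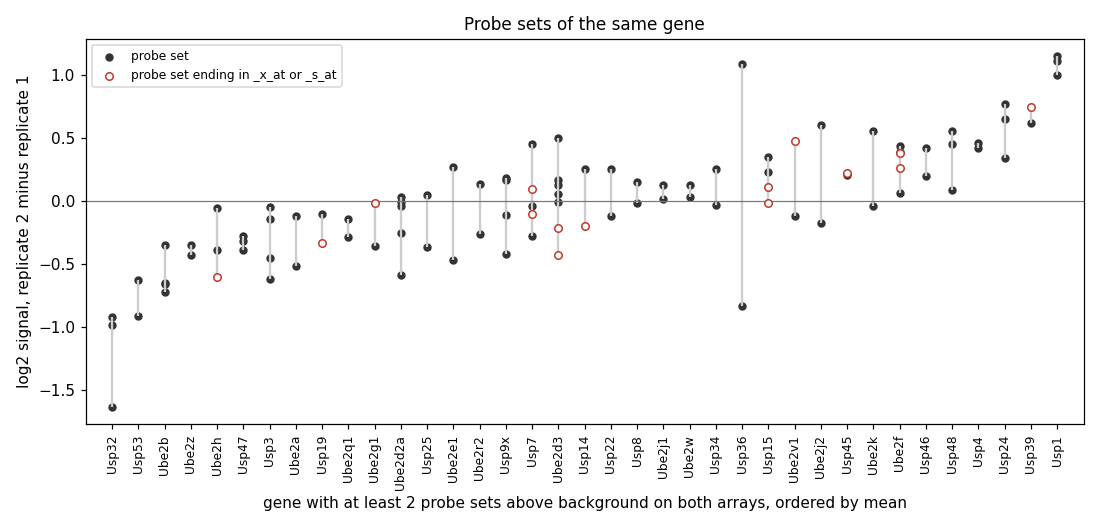
Log2 signal of replicate 2 minus replicate 1 for each probe set above background on both arrays, for the 37 genes with at least 2 of them, in order of the gene's mean. Open circles stand for names ending in _x_at or _s_at. The 3 probe sets of Usp32 lie between -1.63 and -0.92 and the 3 of Usp1 between 1.00 and 1.14, while those of Usp36 lie on both sides of 0.

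The rest of the pathway was also mostly above background, where 40.4% of all measured genes were. These counts too move with the number of probe sets per gene, and genes of like number were not compared. Of the E1 activating enzymes 7 of 8 were, with Uba6 at 238 and 295, Sae1 (a subunit of the SUMO E1) at 233 and 292, and both subunits of the NEDD8 E1, Uba3 (730 and 835) and Nae1 (1063 and 831). The E1 for ISG15, Uba7, had 396 and 345. Among 8 E2-like genes with other names 7 were above background, including Cdc34 (728 and 664), Birc6 (1090.1 and 1115), Atg3, the E2-like enzyme of autophagy (8982 and 6760), and Uevld, which was over 2-fold higher on replicate 2 with 136 and 278. Of 5 measured ubiquitin and ubiquitin-like genes 3 were above background: Nedd8 (2160 and 2189), Sumo3 (536 and 928) and Ufm1 (467 and 594).

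Deubiquitinases of other families were above background in 23 of 28 (82.1%), beside 40.4% of all measured genes. None of the 23 was over 2-fold apart, beside 3.43% of all genes higher on replicate 2 and 1.97% higher on replicate 1. Their median difference was 0.15, beside 0.07 for all genes. Cyld, which removes Lys63-linked and linear chains and restrains NF-kB, had 1437 and 1159. Tnfaip3 (A20), an inhibitor of the same pathway, had 435 and 391, and Otulin, which cuts linear chains, had 251 and 332. The proteasome's own deubiquitinases Psmd14 (1349.7 and 2159) and Uchl5 (729 and 998) were both higher on replicate 2. Uchl1, known from neurons, was below background at 48.4 and 5.37. Of 35 measured partner genes of these enzymes 29 were above background (82.9%), beside 40.4% of all measured genes. Apart from Cdc20, Rnf168 was over 2-fold higher on replicate 2, with 130 and 319; it is an E3 of the DNA damage response that works with Ube2n. Rnf8, which acts before it, had 307 and 588.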

How the data were processed

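Values were used as deposited: a linear intensity for each of 45101 probe sets on 2 arrays. The submitters' processing notes name MAS5, without a version or parameters. Checked on the values, the mean without the lowest and highest 2% was 250.0 on both arrays, so total brightness had been equalised before deposit. GEO's platform annotation gave the gene names, and the 34958 probe sets with exactly 1 gene were kept. Of the 83 members, 82 matched the RefSeq gene table (GRCm38.p6) by identifier; Usp46os2 keeps the annotation's name. Signals were floored at 1 before log2. The number of arrays limits the precision, and depth has no meaning here. Whether animals were separate is not given, so the spread between replicates may hold more or less than that between mice. Thresholds and differences were computed with Python 3.11.15, numpy 2.4.6 and pandas 2.3.3, and the procedure was tested on simulated data. By rule, the first 4 members of each role group, those above background on 1 array alone or against their group, and the 10 farthest apart in each direction were named. In other lists the rule asked for the first 3 and any over 2-fold apart, and not all of these are given. The other names were added after their values were seen. Members, roles and lists were chosen with earlier results of these data known. Alternatives were the background percentile or genes, scaling, quantile normalization, the probe sets used, a value of 32 added to the signal, and no filter.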

Additional observations from a re-analysis of the deposited data

Results flagged for a closer look

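Probe sets assigned to several genes were not used above, and 5 of the 8 that name a Ube2 or Usp gene were above background on both arrays. All 4 probe sets of Ube2l3, an E2 for HECT and RBR ligases, carry 5 gene names each, and their signals spanned 365 to 2365 (replicate 1) and 475 to 2336 (replicate 2). The fifth names Usp50 and Polr2l, with 488 and 289.6, while the probe sets of Usp50 alone were below background.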

How the results depend on the processing

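The number of genes above background was 56, and 57 with the 90th percentile, 50 with the 99th and 57 with beta defensin, keratin-associated, lens crystallin and placental genes as background. It was 44 with the mean of all probe sets, 54 of 82 without _x_at and _s_at probe sets (Ube2s and Usp38 were lost), and 28 where every probe set had to pass. Taken on 1 array alone it was between 56 and 60. The genes lost with the 99th percentile were Ube2d-ps, Ube2d1, Ube2l6, Ube2q2, Usp31 and Usp40. Chosen after seeing the data, genes with 1 probe set gave 7 of 21, and leaving out the 4 entries outside the E2 and USP families gave 55. The median difference of 0.12 became -0.59 with scaling to the hybridisation controls, where it stayed 0.05 above the median of all genes, as with the deposited scaling. Genes over 2-fold higher on replicate 2 numbered 2, but 1 with median scaling, 1 with the hybridisation controls (Ube2c in both) and 8 with no filter. Genes over 2-fold higher on replicate 1 numbered 0, but 1 with median scaling, 1 with the mean of probe sets, 11 with the hybridisation controls and 5 with no filter. Over all genes above background the counts higher on replicate 2 and on replicate 1 were 252 and 145. They were 163 and 235 with median scaling, 33 and 1540 with the hybridisation controls, and 163 and 121 with the mean of probe sets. With no filter they were 2823 and 2108 of 18194 genes, beside 8 and 5 of 83 Ube2 and Usp genes. The 1 gene over 2-fold higher on replicate 1 with median scaling and with the mean of probe sets was Usp32. Of 20 genes farthest apart, Ube2s turned to -0.49 without _s_at probe sets and Usp36 to 0.54 with the mean of probe sets, and Ube2j2 (-0.12), Ube2k (-0.17), Ube2q2 (-0.10) and Usp24 (-0.07) turned with the hybridisation controls. The cause was not tested. No paired analysis was possible because there is 1 group.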
